A study of Mus musculus with 9 samples.

Results

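The BMP receptor, Smad and Id genes are 10 of the 23420 rows of an expression table of mouse neural stem cells, chosen by name. They are the type I receptor genes Bmpr1a and Bmpr1b, the type II receptor gene Bmpr2, the receptor-regulated Smad genes Smad1 and Smad5, the common-partner gene Smad4, and the target genes Id1, Id2, Id3 and Id4. All 10 passed the filter on low values (at least 1 TPM in at least 3 libraries). TPM is the transcript abundance after division by gene length, scaled to the same total in each library. Levels of different genes can be set side by side only as far as the lengths used fit the transcripts present.

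Neural stem cells from the hippocampus of wild-type C57BL/6J mice aged 2 days were grown in culture and then moved to a medium lacking bFGF and EGF, in which they differentiate. In that medium they received 3 µM NAT, 3 µM P7C3-A20 or the DMSO vehicle, with 3 libraries in each of the 3 groups. NAT is a small molecule that the labels name without a structure, and P7C3-A20 is an aminopropyl carbazole known for favouring the survival of newborn neurons. The comparisons ask how each compound's libraries differ from the vehicle and from each other at the same dose. Every group came from wild-type tissue and had the growth factors withdrawn, and the labels do not say how long the cells were treated. They call the libraries biological replicates without saying whether these came from separate cultures or animals, so a p-value here reflects library-to-library spread that may be technical.

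Bone morphogenetic proteins bind a pair of receptor kinases, in which the type II receptor activates the type I receptor. The type I receptor phosphorylates Smad1 and Smad5, which join Smad4 and enter the nucleus. Id genes are among the best known targets of these Smads. Id proteins bind E proteins and keep bHLH factors from DNA. In neural stem cells, BMP signalling is known for favouring astrocytes and quiescence over neurons and oligodendrocytes.

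The sequences before the transcription starts of Id2, Id3 and Id4 are shown because these genes are the pathway's transcriptional output. Each is the 250 bases before the RefSeq start on GRCm38.p6, 5′ to 3′ on the gene's own strand. Id2 lies at chr12:25096093-25096342 on the minus strand, Id3 at chr4:136143572-136143821 on the plus strand and Id4 at chr13:48260866-48261115 on the plus strand. Capitals mark matches on either strand to GGCGCC (a palindrome, the GC-rich element bound by BMP Smads), GTCTG (the Smad box, CAGAC on the other strand) and CCAAT (the box bound by NF-Y, ATTGG on the other strand).
Id2: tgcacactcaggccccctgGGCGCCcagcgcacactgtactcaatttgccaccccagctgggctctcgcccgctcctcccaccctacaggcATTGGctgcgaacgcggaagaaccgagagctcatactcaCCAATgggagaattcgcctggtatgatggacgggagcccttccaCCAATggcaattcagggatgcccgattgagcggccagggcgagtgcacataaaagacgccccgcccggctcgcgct
Id3: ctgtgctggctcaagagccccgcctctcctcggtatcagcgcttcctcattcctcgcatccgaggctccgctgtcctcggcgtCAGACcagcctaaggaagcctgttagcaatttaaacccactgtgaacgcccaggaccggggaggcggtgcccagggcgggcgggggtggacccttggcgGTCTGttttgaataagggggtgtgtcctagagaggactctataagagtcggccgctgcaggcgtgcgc
Id4: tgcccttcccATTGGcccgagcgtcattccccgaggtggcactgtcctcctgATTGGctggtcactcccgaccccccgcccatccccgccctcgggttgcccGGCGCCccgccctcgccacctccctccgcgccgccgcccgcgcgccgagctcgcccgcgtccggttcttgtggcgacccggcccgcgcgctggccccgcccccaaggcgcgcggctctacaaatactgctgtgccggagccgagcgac
Id2 held 1 GGCGCC and 3 CCAAT matches, Id4 held 1 GGCGCC and 2 CCAAT matches, and Id3 held 2 GTCTG matches and neither of the others. Of 32851 mouse promoters of that length, 9.59% held GGCGCC, 42.2% held GTCTG and 33.8% held CCAAT. Among the receptor genes, Bmpr1a and Bmpr2 also held 1 GGCGCC match each, and among the Smad genes Smad5 held 1 in 1 of its promoters. A match describes letters in a window and says nothing of binding in these cells. RefSeq entries were found for 8 of the 10 genes, and none for Id1 or Smad4, so the Id1 sequence is not shown.

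Recovered depth ran from 12738006 to 13516248 reads in NAT libraries, from 15380977 to 16929714 in P7C3-A20 libraries and from 11487218 to 13604222 in DMSO libraries. The libraries held every one of the 7 neural stem and radial glial markers, whose summed level was 18482 to 18923 TPM with NAT, 17481 to 18403 TPM with P7C3-A20 and 19085 to 19470 TPM with DMSO. Summed astrocyte markers ranged from 5554 to 5783 TPM with NAT, 5118 to 5633 TPM with P7C3-A20 and 5217 to 5535 TPM with DMSO. Oligodendrocyte lineage markers summed to 3150 to 3323 TPM with NAT, 3298 to 3839 TPM with P7C3-A20 and 3313 to 3454 TPM with DMSO. Neuron markers summed to 699 to 745 TPM with NAT, 676 to 734 TPM with P7C3-A20 and 714 to 743 TPM with DMSO. Single genes made up much of these sums, with Fabp7 at 10636 to 12411 TPM, Olig1 at 2007 to 2530 TPM and Map2 at 583 to 653 TPM. By contrast, the mature markers Mbp (3.45 to 4.94 TPM), Rbfox3 (1.29 to 2.14 TPM), Syt1 (1.81 to 2.55 TPM) and Stmn2 (0.49 to 1.03 TPM) were low. No gene of these neural lists was at 0. Markers of blood, vessels and microglia were nearly absent, with the endothelial Cldn5 and Cdh5, the microglial Cx3cr1, C1qc and Trem2 and the globin genes Hba-a1 and Hbb-b1 all listed at 0. The endothelial sum was 6.68 to 7.46 TPM with NAT, 6.09 to 6.89 TPM with P7C3-A20 and 5.95 to 6.12 TPM with DMSO. Flt1 (4.02 to 5.32 TPM) and Kdr (0.93 to 1.95 TPM) made up most of it. The blood gene Alas2 was at 0.90 to 3.42 TPM. The part of these marker sums in the differences below was not tested. P7C3-A20 replicate 3 stood apart. Its values had a slope with GC content of 0.12 on the log2 scale per 10 percentage points, against -0.07 to 0.04 in the other 8 libraries. It was the lowest of all 9 libraries for 6 of the 10 genes (60.0%) and for 3303 of the 13839 tested genes (23.9%). Where leaving it out moves a difference of the 10 genes by over 1.5 times, both values are given.

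None of the 10 genes passed the test in any comparison (limma-trend on log2(TPM + 1), Benjamini-Hochberg adjusted p below 0.05 over 13839 genes). For NAT against DMSO, 0 of 10 were called against a background of 0.0289% of tested genes. For P7C3-A20 against DMSO, 0 of 10 were called against 0.0217%. For NAT against P7C3-A20, 0 of 10 were called against 0%. An unadjusted p below 0.05 was reached by 2, 3 and 3 of 10 in these comparisons, in the same order, and by 11.7%, 15.9% and 15.8% of all tested genes. Groups did not overlap for 4, 3 and 4 of the 10 genes, where this was so for 19.0%, 20.6% and 21.7% of tested genes. The counts lie about 1 or 2 genes above those backgrounds, in a set chosen with results known, and are given as a description. Voom is another limma model, run here on read numbers recovered from the TPM values. It called 0 of 10 in both comparisons with DMSO and 2 of 10, Bmpr1a and Bmpr2, in NAT against P7C3-A20. Its calls among all 13838 genes of that model numbered 27, 281 and 311, with the comparisons in the order used above. The median log2 difference of the 10 genes was 0.05 with NAT against DMSO, -0.05 with P7C3-A20 against DMSO and 0.06 with NAT against P7C3-A20. Over all tested genes these medians were 0.03, 0.01 and 0.01. The comparisons with DMSO share the same 3 DMSO libraries.

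**Figure D1:**
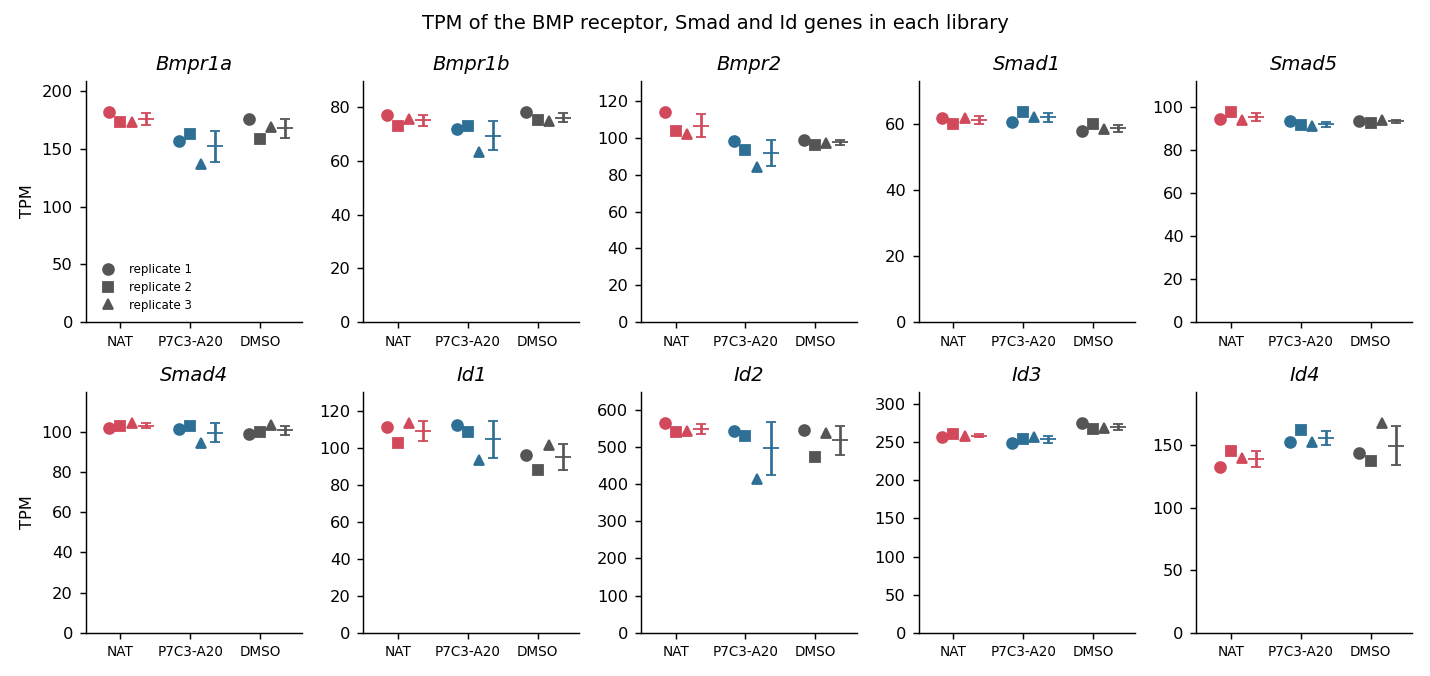
TPM of the 10 genes in each library, with 1 panel per gene, the groups NAT, P7C3-A20 and DMSO along each axis, marker shape for the replicate number and bars for the mean ± SD (n = 3). Vertical axes start at 0 and differ between panels; Id2 is at 415 to 564 TPM, and its lowest value, like that of all 3 receptor genes, is P7C3-A20 replicate 3.

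All 10 genes were well expressed. In DMSO libraries the highest was Id2, at 518 ± 39.3 TPM (SD, n = 3), above Id3 at 270.1 ± 4.30 TPM and Bmpr1a at 168 ± 8.56 TPM. Their mean level put Id2 at the 98.3th percentile of tested genes and Smad1, the lowest of the 10, at the 73.7th. Bmpr1a overlapped its neighbour Id4 in DMSO libraries, and each of Smad4, Bmpr2 and Id1 overlapped the next in the order, which for Id1 was Smad5. Smad5, Bmpr1b and Smad1 then followed, each apart from the next. In every group the order began with Id2 and then Id3, whose libraries did not overlap. Id4 and Bmpr1a were apart in NAT libraries, with Bmpr1a higher, and overlapped in P7C3-A20 libraries. Smad1 and Bmpr1b overlapped in P7C3-A20 libraries. The order of genes depends on the gene lengths behind the TPM. The implied length was 27.2% of the longest annotated transcript for Bmpr2, 43.2% for Id4 and 64.7% for Id2. Fewer cells of a type and less RNA per cell cannot be told apart in these bulk samples.

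The group means of all 3 receptor genes were lowest in P7C3-A20 libraries, without passing the test. Bmpr1a, which encodes the type I receptor ALK3, stood at 182, 173 and 173 TPM in NAT libraries, at 157, 163 and 137 TPM in P7C3-A20 libraries and at 176, 159 and 169 TPM in DMSO libraries. Every NAT library exceeded every P7C3-A20 library, whereas both groups overlapped DMSO. The log2 difference was 0.21 ± 0.06 (SE) for NAT against P7C3-A20 (95% interval 0.08 to 0.35, limma adjusted p = 0.195). It was 0.07 ± 0.06 for NAT against DMSO (interval -0.06 to 0.20, limma adjusted p = 0.692). For P7C3-A20 against DMSO it was -0.14 ± 0.06 (interval -0.28 to -0.01, limma adjusted p = 0.29). The values sit modestly either side of the vehicle. Without P7C3-A20 replicate 3, the differences of Bmpr1a from NAT and from DMSO were 0.14 (NAT minus P7C3-A20) and -0.07 (P7C3-A20 minus DMSO), with limma adjusted p = 0.414 and 0.572. Without DMSO replicate 2, NAT against DMSO was 0.03.

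Bmpr2, the gene for the type II BMP receptor, had 114, 104 and 102 TPM in NAT libraries, 98.3, 93.3 and 84.3 TPM in P7C3-A20 libraries and 99.0, 96.2 and 97.4 TPM in DMSO libraries. All NAT libraries lay above all others, and P7C3-A20 and DMSO overlapped. The log2 difference for NAT against P7C3-A20 was 0.21 ± 0.06 (SE, 95% interval 0.09 to 0.34, limma adjusted p = 0.187). For NAT against DMSO it was 0.13 ± 0.06 (interval -0.00 to 0.25, limma adjusted p = 0.429), and for P7C3-A20 against DMSO -0.09 ± 0.06 (limma adjusted p = 0.476). Without P7C3-A20 replicate 3, NAT exceeded P7C3-A20 by 0.15 (limma adjusted p = 0.414), and P7C3-A20 against DMSO was -0.03. Without NAT replicate 1, NAT against DMSO was 0.08. In voom on recovered reads, NAT against P7C3-A20 was called for Bmpr1a (0.19, adjusted p = 0.0347) and for Bmpr2 (0.19, adjusted p = 0.0384). With voom and without P7C3-A20 replicate 3, the same comparison gave 0.12 for Bmpr1a (adjusted p = 0.109) and 0.14 for Bmpr2 (adjusted p = 0.137), so neither call stood without that library. Nor did they stand in voom with the GC trend removed (0.12 each, adjusted p = 0.188 for Bmpr1a and 0.217 for Bmpr2).

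Bmpr1b, the gene of the type I receptor ALK6, had 77.0, 72.9 and 75.6 TPM in NAT libraries, 71.8, 73.2 and 63.5 TPM in P7C3-A20 libraries and 78.1, 75.5 and 75.1 TPM in DMSO libraries. P7C3-A20 libraries lay below all DMSO libraries, and NAT overlapped both groups. The log2 difference for P7C3-A20 against DMSO was -0.13 ± 0.05 (SE, 95% interval -0.25 to -0.02, limma adjusted p = 0.257). Without P7C3-A20 replicate 3 it was -0.07 (limma adjusted p = 0.489). For NAT against DMSO it was -0.02 (interval -0.14 to 0.10), and for NAT against P7C3-A20 0.11 (interval -0.00 to 0.23), or 0.05 without P7C3-A20 replicate 3. Bmpr1a exceeded Bmpr1b in every library, and the ratio of their TPM was 2.29 to 2.37 with NAT, 2.15 to 2.23 with P7C3-A20 and 2.10 to 2.25 with DMSO. NAT libraries had the higher ratio without overlap, a feature picked after its values were seen and not tested.

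The Smad genes varied little between groups. Smad5 encodes a receptor-regulated Smad and had 94.6, 97.7 and 94.3 TPM in NAT libraries, 93.6, 91.6 and 91.4 TPM in P7C3-A20 libraries and 93.9, 92.7 and 94.1 TPM in DMSO libraries. NAT libraries lay just above the rest, by 0.03 against DMSO (95% interval -0.04 to 0.10, limma adjusted p = 0.741) and 0.05 against P7C3-A20 (interval -0.02 to 0.12, limma adjusted p = 0.458) on the log2 scale. For P7C3-A20 against DMSO the difference was -0.02 (interval -0.09 to 0.05). Each of these intervals stays within about 0.12 of 0.

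Smad1, the other receptor-regulated Smad gene, had 62.0, 60.0 and 61.9 TPM in NAT libraries, 60.8, 63.5 and 62.1 TPM in P7C3-A20 libraries and 57.8, 60.0 and 58.5 TPM in DMSO libraries. All P7C3-A20 libraries lay above all DMSO libraries, with a log2 difference of 0.08 ± 0.04 (SE, 95% interval -0.00 to 0.16, limma adjusted p = 0.319). NAT overlapped DMSO by a narrow margin, at 0.06 ± 0.04 (interval -0.02 to 0.14, limma adjusted p = 0.542). NAT and P7C3-A20 overlapped, at -0.02 (interval -0.10 to 0.06). Smad4, whose product joins both of these Smads, had 102, 103 and 104 TPM in NAT libraries, 102, 103 and 94.6 TPM in P7C3-A20 libraries and 98.9, 100.2 and 103 TPM in DMSO libraries. All 3 groups overlapped, with log2 differences of 0.03 for NAT against DMSO (95% interval -0.05 to 0.12), -0.02 for P7C3-A20 against DMSO (95% interval -0.10 to 0.07) and 0.05 between NAT and P7C3-A20 (95% interval -0.04 to 0.13, NAT minus P7C3-A20). The last 2 were 0.02 and 0.01 without P7C3-A20 replicate 3. The coefficient of variation of Smad1 was 1.86%, 2.20% and 1.91% in NAT, P7C3-A20 and DMSO libraries, below the 3.37%, 2.99% and 3.48% that counting error alone gives at its depth. The limma intervals of Smad1 may therefore be too narrow.

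The 4 Id genes stood on different sides of DMSO, and none passed the test. Id1 had 112, 103 and 114 TPM in NAT libraries, 113, 109 and 93.5 TPM in P7C3-A20 libraries and 96.5, 88.0 and 102 TPM in DMSO libraries. All NAT libraries lay above all DMSO libraries, and P7C3-A20 overlapped both groups, with replicate 3 its only library below the highest DMSO library. The log2 difference for NAT against DMSO was 0.20 ± 0.07 (SE, 95% interval 0.04 to 0.36, limma adjusted p = 0.349). For P7C3-A20 against DMSO it was 0.13 ± 0.07 (interval -0.03 to 0.29, limma adjusted p = 0.394). Without P7C3-A20 replicate 3, the remaining pair of P7C3-A20 libraries also lay above every DMSO library, at 0.21 ± 0.06 (limma adjusted p = 0.271). Without P7C3-A20 replicate 1 or DMSO replicate 2, that difference was 0.08. For NAT against P7C3-A20 the difference was 0.06 (interval -0.10 to 0.22), and -0.02 without that library. Id1 rested on 343 to 614 reads per library, fewer than any other of the 10 genes. Counting error alone gave coefficients of variation of 4.62%, 4.22% and 5.0% in NAT, P7C3-A20 and DMSO libraries, against observed values of 5.12%, 9.64% and 7.29%.

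Id3 lay on the other side of DMSO. It had 256, 260.2 and 258 TPM in NAT libraries, 249.2, 254 and 258 TPM in P7C3-A20 libraries and 275, 267 and 268 TPM in DMSO libraries. Every treated library lay below every DMSO library, and the treated groups overlapped. The log2 difference was -0.06 ± 0.03 (SE) for NAT against DMSO (95% interval -0.13 to -0.00, limma adjusted p = 0.42) and -0.09 ± 0.03 for P7C3-A20 against DMSO (interval -0.15 to -0.03, limma adjusted p = 0.192). For NAT against P7C3-A20 it was 0.03 (interval -0.04 to 0.09, limma adjusted p = 0.684). Its observed coefficient of variation was 0.750% in NAT, 1.65% in P7C3-A20 and 1.59% in DMSO libraries, all below the counting errors of 2.94%, 2.65% and 2.90%. The limma intervals of Id3 may therefore be too narrow. In voom, NAT against DMSO was -0.09 ± 0.04 (SE, adjusted p = 0.476). The ratio of Id1 to Id3 was 0.396 to 0.440 with NAT, 0.363 to 0.452 with P7C3-A20 and 0.329 to 0.379 with DMSO. NAT and DMSO did not overlap in this ratio, which was formed after the values were seen and was not tested.

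Id2, the most abundant, had 564, 541 and 542 TPM in NAT libraries, 543, 531 and 415 TPM in P7C3-A20 libraries and 545, 473 and 537 TPM in DMSO libraries. The groups overlapped, and the lowest library of each of P7C3-A20 and DMSO lay well below its own group's others. The log2 difference was 0.09 ± 0.09 (SE) for NAT against DMSO (95% interval -0.11 to 0.28) and 0.16 ± 0.09 for NAT against P7C3-A20 (interval -0.04 to 0.35). Without DMSO replicate 2, NAT against DMSO was 0.02, and without P7C3-A20 replicate 3, NAT against P7C3-A20 was 0.03. For P7C3-A20 against DMSO it was -0.07 ± 0.09 (interval -0.27 to 0.13), and 0.05 without P7C3-A20 replicate 3. Id2 made up 51.4% to 53.0% of the summed Id TPM with NAT, 45.2% to 51.3% with P7C3-A20 and 49.0% to 51.4% with DMSO.

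Id4 had 132, 145 and 140.0 TPM in NAT libraries, 153, 162 and 152 TPM in P7C3-A20 libraries and 144, 138 and 168 TPM in DMSO libraries. Every NAT library lay below every P7C3-A20 library, and DMSO, with a high replicate 3, overlapped both. The log2 difference for NAT against P7C3-A20 was -0.16 ± 0.07 (SE, 95% interval -0.31 to -0.02, limma adjusted p = 0.276). It was -0.10 ± 0.07 for NAT against DMSO (interval -0.24 to 0.04) and 0.06 ± 0.07 for P7C3-A20 against DMSO (interval -0.08 to 0.21). Without DMSO replicate 3 these were -0.02 and 0.14, and without DMSO replicate 2 they were -0.16 and 0.0042. Without P7C3-A20 replicate 3, NAT against P7C3-A20 was -0.18 (limma adjusted p = 0.507). With the GC trend of each library removed from the recovered reads, voom called it at -0.25 (adjusted p = 0.0386). Voom without that removal gave -0.18 (adjusted p = 0.0706), and -0.19 (adjusted p = 0.0956) without P7C3-A20 replicate 3. The annotation places 2 genes on the strand opposite Id4, 1 opposite Bmpr1a and 1, a processed pseudogene, opposite Smad4, and the kit is not stated to mark the strand. It also places 1 gene over Bmpr2 and 3 small RNA genes over Smad5 on the same strand. Reads of these overlapping genes cannot be told apart.

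**Figure D2:**
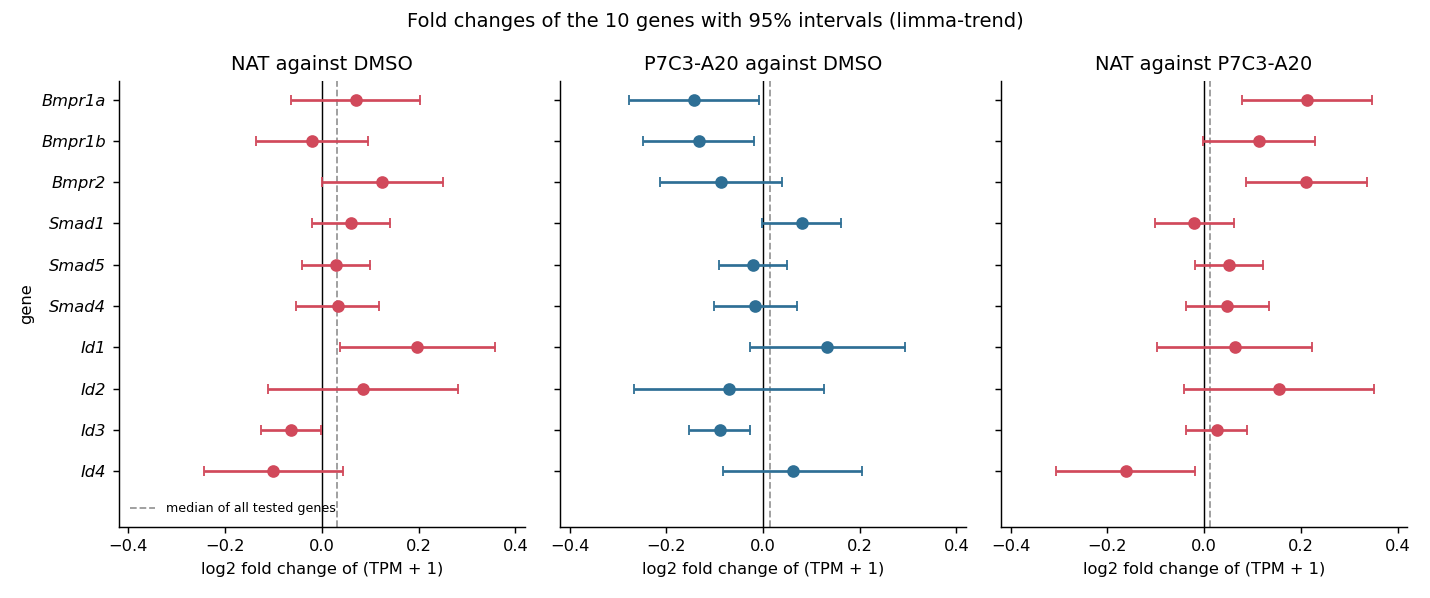
Log2 difference of TPM + 1 for the 10 genes in the 3 comparisons, with points for the estimate, bars for the 95% interval from limma-trend and a dashed line at the median of all tested genes. Bmpr1a and Bmpr2 both stand at 0.21 for NAT against P7C3-A20, while Id3 is below 0 in both comparisons with DMSO and Id1 above 0.

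In both comparisons with P7C3-A20, differences over the whole table went with base composition. Across 13701 genes, Spearman's rho between GC content and the log2 difference was 0.01 when NAT was set against DMSO, 0.48 when P7C3-A20 was set against DMSO and -0.47 when NAT was set against P7C3-A20, as a description of genes that share their libraries. The receptor genes are poor in GC, at 41.3% for Bmpr1a, 42.2% for Bmpr1b and 41.0% for Bmpr2. Smad1 (51.5%), Id1 (54.7%) and Id3 (55.6%) are richer, with Id4 at 42.6% and Id2 at 45.2%. With each library's GC trend removed, P7C3-A20 against DMSO gave -0.09 for Bmpr1a, -0.08 for Bmpr1b and -0.03 for Bmpr2, and NAT against P7C3-A20 gave 0.13 for Bmpr1a and 0.12 for Bmpr2. For Id1, which is GC-rich, P7C3-A20 against DMSO gave 0.07. The differences of Id3 and Id4 were larger in size, at -0.16 for Id3 in P7C3-A20 against DMSO (limma adjusted p = 0.23) and -0.24 for Id4 in NAT against P7C3-A20 (limma adjusted p = 0.273). GC content was taken over the longest transcript. The gene length implied by the TPM was 27.2% of that transcript for Bmpr2 and 43.2% for Id4, so their GC values describe a longer sequence than the one counted.

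**Figure D3:**
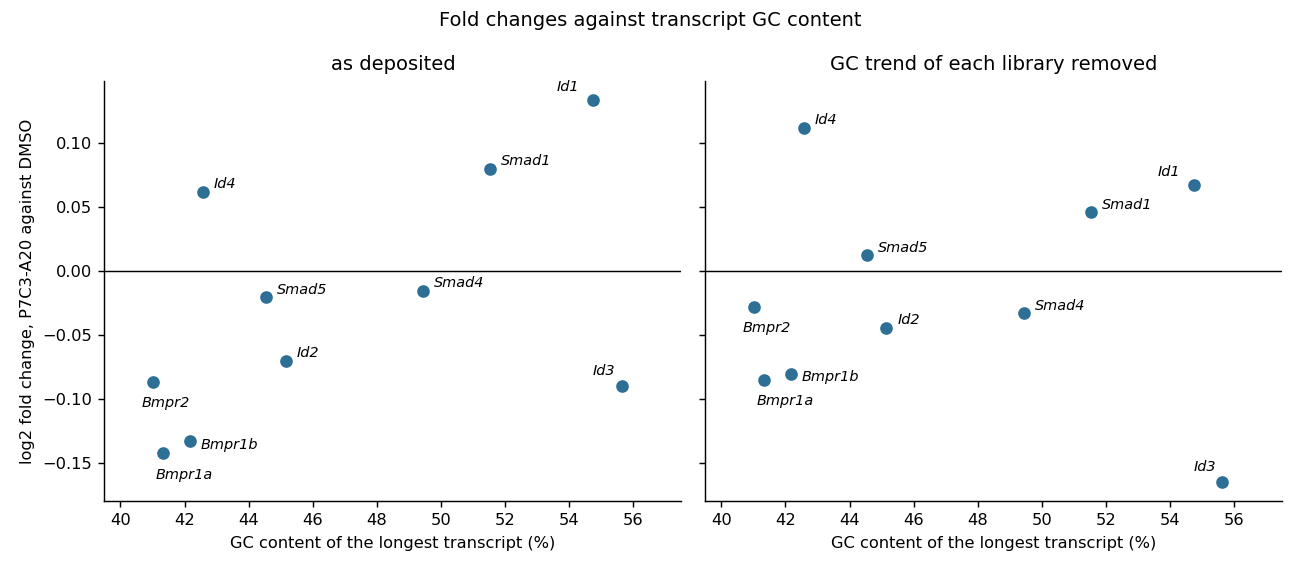
Log2 difference of TPM + 1 for P7C3-A20 against DMSO (vertical axis) against the GC content in percent of the longest transcript (horizontal axis), 1 point per gene, on the left from the deposited values and on the right after removing each library's GC trend. The 3 receptor genes stand at -0.14, -0.13 and -0.09 on the left and at -0.09, -0.08 and -0.03 on the right, while Id3 is at -0.09 on the left and -0.16 on the right.

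The other genes of the pathway, 92 in all and grouped by role, included 58 that passed the filter under their listed symbol. Limma-trend called 0 of these in each comparison. Prrx1, listed under an older symbol, also passed the filter (limma unadjusted p = 0.168, 0.816 and 0.114 in the 3 comparisons). It is outside the 58 and the counts made from them, but is kept among the other BMP target genes below. An unadjusted p below 0.05 was reached by 13 with NAT and 13 with P7C3-A20 against DMSO, and by 12 between NAT and P7C3-A20. These are 22.4%, 22.4% and 20.7% of the 58, beside the 11.7%, 15.9% and 15.8% of all tested genes. Voom called Hes5 and Ets1 for NAT against DMSO, 3 genes (Rgma, Zeb2 and Elk4) for P7C3-A20 against DMSO and Hes5 alone between NAT and P7C3-A20. Of all 13838 genes in that model, it called 27, 281 and 311 in these comparisons. With the GC trend removed, voom no longer called Rgma (0.05, adjusted p = 0.618), Zeb2 (-0.11, adjusted p = 0.198) or Elk4 (-0.19, adjusted p = 0.0691). It also lost Elk4 without P7C3-A20 replicate 3 (-0.18, adjusted p = 0.0625). Ets1 was called in both of these settings, at -0.25 (adjusted p = 0.0146) and -0.24 (adjusted p = 0.000163) for NAT against DMSO. Ets1 is named after its values were seen. Of 15 BMP ligand genes, 3 passed the filter on low values. Bmp7 had the highest level, at 46.8, 53.8 and 56.3 TPM in NAT libraries, 48.8, 51.3 and 55.5 TPM in P7C3-A20 libraries and 49.3, 53.5 and 47.3 TPM in DMSO libraries. Those groups overlapped, and the log2 difference of Bmp7 for P7C3-A20 against DMSO was 0.05 (95% interval -0.11 to 0.21), and -0.02 with the GC trend removed. Bmp3, of lowest p in both comparisons with NAT, was at -0.32 against DMSO and -0.29 against P7C3-A20, from levels of 1.48 ± 0.583 TPM with NAT, 1.98 ± 0.321 TPM with P7C3-A20 and 2.05 ± 0.409 TPM with DMSO (SD, n = 3). Without NAT replicate 3 these differences were -0.15 and -0.11, and without NAT replicate 1 they were -0.49 and -0.46.

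Of 11 other receptors and coreceptors, 7 were tested, and the median log2 difference was 0.07 when NAT was set against DMSO, 0.04 when P7C3-A20 was set against DMSO and 0.01 when NAT was set against P7C3-A20. Rgma, a BMP coreceptor, was the most abundant, at 349, 399 and 381 TPM in NAT libraries, 387, 398 and 378 TPM in P7C3-A20 libraries and 328, 346 and 364 TPM in DMSO libraries. All P7C3-A20 libraries lay above all DMSO libraries, by 0.17 ± 0.05 on the log2 scale (SE, limma adjusted p = 0.191). With the GC trend removed it was 0.06. Neo1, the gene of the receptor neogenin for RGM proteins, was higher with NAT than with DMSO by 0.12 ± 0.05 (limma adjusted p = 0.365). Rgmb, another coreceptor gene, was lower with NAT than with P7C3-A20, at -0.16 ± 0.07 (limma adjusted p = 0.301).

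Of 19 extracellular modulators, 11 were tested, with medians of 0.07, 0.07 and 0.03 in the 3 comparisons in that order. Nbl1, which encodes a secreted BMP antagonist, had 106, 121 and 117 TPM in NAT libraries, 108, 111 and 110.2 TPM in P7C3-A20 libraries and 91.7, 97.2 and 101 TPM in DMSO libraries. Every treated library lay above every DMSO library, by 0.24 ± 0.05 for NAT (SE, limma adjusted p = 0.21) and 0.18 ± 0.05 for P7C3-A20 (limma adjusted p = 0.176). With the GC trend removed, the difference with P7C3-A20 was 0.07. For NAT against DMSO, voom did not call Nbl1 (0.21, adjusted p = 0.106). It called Nbl1 there with the GC trend removed (0.21, adjusted p = 0.0352) and without P7C3-A20 replicate 3 (0.21, adjusted p = 0.0166). Chrd, the gene of the antagonist chordin, was at -0.29 ± 0.11 for NAT against P7C3-A20 (limma adjusted p = 0.26). Bmp1, whose protease cleaves chordin, had the highest level of the list, at 141 to 154 TPM with NAT, 149.5 to 150.2 TPM with P7C3-A20 and 135 to 140.4 TPM with DMSO.

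Of 18 other Smads and intracellular regulators, 17 were tested, with medians of 0.03, -0.01 and 0.03. Smad9, the remaining receptor-regulated Smad gene of the BMP branch, had 5.54, 5.01 and 5.73 TPM in NAT libraries, 4.6, 4.53 and 4.49 TPM in P7C3-A20 libraries and 4.0, 4.14 and 4.45 TPM in DMSO libraries. Its levels did not overlap between any of the groups, with a log2 difference of 0.31 ± 0.09 for NAT against DMSO (SE, limma adjusted p = 0.284). Zeb2, a Smad-binding repressor gene, was at -0.18 ± 0.05 for P7C3-A20 against DMSO (limma adjusted p = 0.166), and at -0.12 with the GC trend removed. Xiap, whose product links BMP receptors to TAK1, was at 0.14 ± 0.06 for NAT against P7C3-A20 (limma adjusted p = 0.268). For Xiap it was 0.07 without P7C3-A20 replicate 3 and 0.06 with the GC trend removed. Fkbp1a, whose product binds unstimulated type I receptors, was the most abundant of the list, at 251 to 261 TPM with NAT, 258 to 267 TPM with P7C3-A20 and 246 to 257 TPM with DMSO.

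Of 13 other BMP target genes, 8 were tested, Prrx1 among them, with medians of -0.01, 0.02 and -0.02. Smad6, Smad7, Bambi and Nog stand both here and in another of the lists. Hey1, a bHLH repressor gene also driven by Notch, was the most abundant, at 119 to 127 TPM with NAT, 122 to 125 TPM with P7C3-A20 and 117 to 121 TPM with DMSO. The homeobox gene Dlx2 was at -0.37 ± 0.18 for NAT against DMSO (SE, limma adjusted p = 0.446) and -0.49 ± 0.18 for NAT against P7C3-A20 (limma adjusted p = 0.237), from levels of 1.5 to 2.72 TPM with NAT, 2.81 to 4.0 TPM with P7C3-A20 and 2.37 to 3.31 TPM with DMSO. Without NAT replicate 3, NAT against DMSO was -0.24. Nog, the gene of the antagonist noggin, was at 0.30 ± 0.13 for P7C3-A20 against DMSO (limma adjusted p = 0.304).

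The list of genes linked to Id proteins numbered 20. Besides E protein and bHLH genes, it held the ETS factor genes Ets1, Ets2, Elk1, Elk3 and Elk4, and also Huwe1 and Usp1. Of the list, 16 genes were tested and 2, Neurog1 and Atoh1, were listed at 0 in every library. Their medians were -0.03, -0.02 and -0.01. Olig1, an oligodendrocyte lineage gene, was the most abundant, at 2007 to 2179 TPM with NAT, 2105 to 2530 TPM with P7C3-A20 and 2107 to 2208 TPM with DMSO. Hes5, a Notch target gene of neural progenitors, had 120, 127 and 117 TPM in NAT libraries, 130.1, 142 and 152 TPM in P7C3-A20 libraries and 137, 163 and 163 TPM in DMSO libraries. All NAT libraries lay below all others, at -0.34 ± 0.07 against DMSO (SE, limma adjusted p = 0.21) and -0.22 ± 0.07 against P7C3-A20 (limma adjusted p = 0.225). Voom on recovered reads called Hes5 in both, at -0.37 (adjusted p = 0.00739) and -0.24 (adjusted p = 0.049). Against P7C3-A20 the call was lost with the GC trend removed (voom, -0.13, adjusted p = 0.272) and without P7C3-A20 replicate 3 (voom, -0.18, adjusted p = 0.187), and against DMSO it held in both (-0.37, adjusted p = 0.000301 and 0.000127). Elk4, an ETS factor gene, was at -0.19 ± 0.05 for P7C3-A20 against DMSO (limma adjusted p = 0.158).

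**Figure D4:**
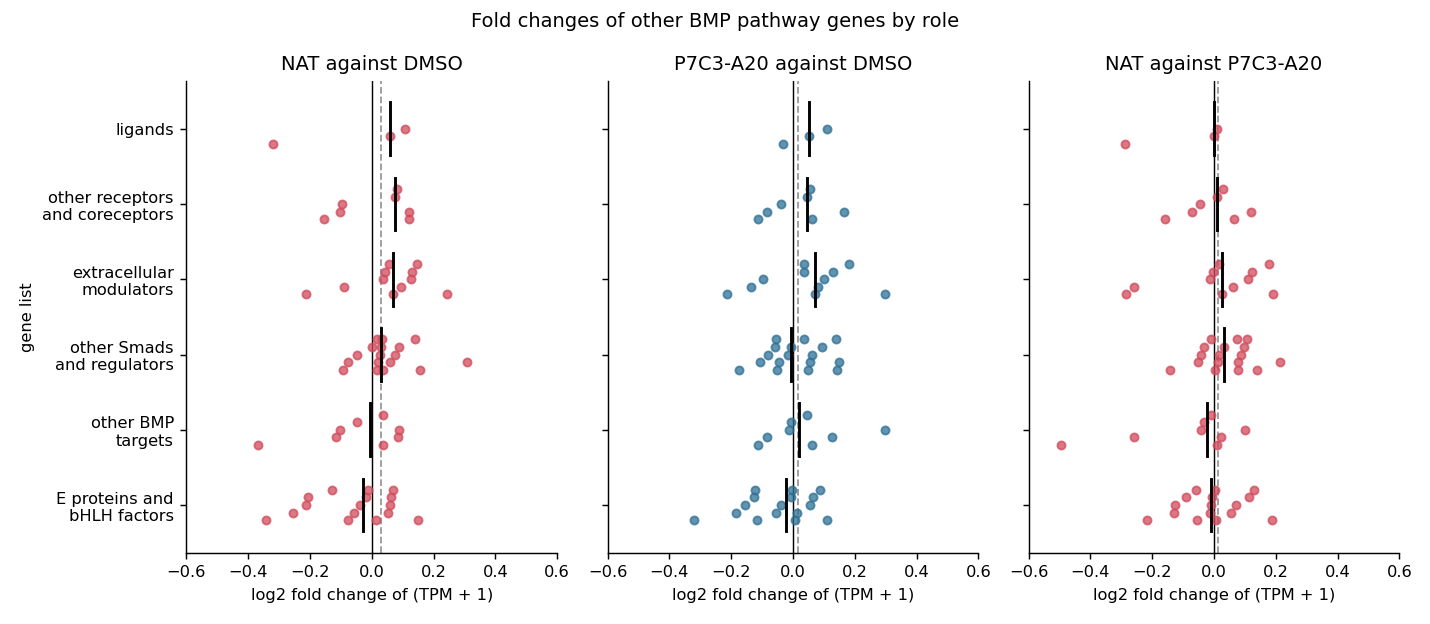
Log2 difference of TPM + 1 for every tested gene of the 6 pathway lists in the 3 comparisons, with 1 point per gene, a black bar at each list's median and a dashed line at the median of all tested genes. List medians lie between -0.03 and 0.07, and single genes reach -0.49 (Dlx2, NAT against P7C3-A20) and 0.31 (Smad9, NAT against DMSO). The list of E proteins and bHLH factors also holds ETS factor genes, Huwe1 and Usp1.

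Likeness to the mean of the 4 Id genes was measured as Pearson's r of log2(TPM + 1) with that mean over the 9 libraries, among 10014 genes of at least 10 TPM on average. The 4 did not move together. Pearson's r was 0.70 for Id1 with Id2, -0.635 for Id1 with Id3 and -0.10 to 0.04 for the other pairs. Their mean is therefore not a profile that all 4 share. The closest were Ocrl (r = 0.94), A730056A06Rik (r = 0.94), Hltf (r = 0.92), Ddx5 (r = 0.92) and 1810026J23Rik (r = 0.92). The most opposed were Heg1 (r = -0.91), Rpl32 (r = -0.90), Rps27a (r = -0.90), Stmn1 (r = -0.90) and Evc (r = -0.90). These values are descriptions, since all genes of a library share its depth and base composition, and the Id mean was lowest in P7C3-A20 replicate 3 and DMSO replicate 2 (7.63 and 7.64, against 7.75 to 7.81 in the other 7).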

How the data were processed

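RNA sequencing libraries were built from total RNA with an Illumina TruSeq kit, per the labels' protocols. The authors deposited TPM for 23420 gene symbols in 9 columns, each summing to 1000000. Bowtie 0.12.2 and the builds mm8 and mm9 are listed, without a role, in the submitters' processing notes. No source used here gives the counter or the annotation, so the only coordinates printed are those of the RefSeq promoters. Whole reads were recovered from the steps of the TPM values for 19301 of 19302 genes with any value (99.99%, tolerance 0.001 reads).

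The test was limma-trend (limma 3.58.1, R 4.3.3) on log2(TPM + 1). It covered the 13839 genes that reached 1 TPM in at least 3 libraries. A single fit took all 9 libraries (6 residual degrees of freedom). P-values are two-sided, with Benjamini-Hochberg adjustment over all genes and a call below 0.05. Differences on this scale understate changes of low genes. Alternatives were a pseudocount of 0.1, no filter, a minimum of 5 TPM, quantile normalization, the replicate number as a block, removal of each library's GC trend (a spline with 5 degrees of freedom on the longest GENCODE transcript), both together, voom on recovered reads, and each library left out. Voom with the GC trend removed, and voom without P7C3-A20 replicate 3, were chosen after seeing the data. Fits were tested on simulated data. Counting errors cover counting only, since no molecular identifiers are named.

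The 10 genes and the pathway lists were chosen with earlier results of these data known. Named genes are the 10, and from each list the gene of lowest p per comparison, the most abundant gene and any listed at 0. For likeness to the mean of the Id genes, the 5 highest and 5 lowest are named. Promoters came from RefSeq on GRCm38.p6. Figures were drawn with matplotlib 3.10.9, and tables were handled with pandas 2.3.3 and numpy 2.4.6 in Python 3.11.15.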

Additional observations from a re-analysis of the deposited data

Results flagged for a closer look

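For Bmpr1a, every NAT library lay above the DMSO mean and every P7C3-A20 library below it. The log2 difference from DMSO was 0.07 with NAT and -0.14 with P7C3-A20, and the difference between these, NAT minus P7C3-A20, was 0.21 ± 0.06 (SE, n = 3 each; limma adjusted p = 0.195), which did not pass.

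For Id4 the sides were turned round, with NAT at -0.10 and P7C3-A20 at 0.06 from DMSO and a difference of -0.16 ± 0.07 (SE, n = 3 each; limma adjusted p = 0.276), which did not pass. Of 13839 tested genes, 707 (5.11%) had their NAT and P7C3-A20 libraries on opposite sides of the DMSO mean in this way, and 2 of the 10 genes did. The sides are taken against the same DMSO libraries.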

How the results depend on the processing

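The number of genes called over the whole table was 4 (NAT against DMSO), 3 (P7C3-A20 against DMSO) and 0 (NAT against P7C3-A20). In that order it was 1, 0 and 0 with a pseudocount of 0.1, 2, 0 and 0 with a minimum of 5 TPM, 5, 2 and 0 with the GC trend removed, 27, 281 and 311 with voom, 53, 35 and 62 with voom and the GC trend removed, and 246, 266 and 89 with voom without P7C3-A20 replicate 3. Leaving out 1 library gave 0 to 8, 1 to 4 and 0 to 2. Of the 10 genes, 0 were called in each of these, except for NAT against P7C3-A20 with voom (2) and with voom and the GC trend removed (1). The cause of the larger voom counts was not tested.

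No paired fit is used for the report, since no source used here shows that the replicate numbers pair the libraries. Deviations of same-numbered libraries had correlations of -0.06 to 0.07, and those of differently numbered ones -0.09 to 0.10. Taken over all genes with 3 libraries in each group, these correlations cannot exclude a pairing. With the replicate block the counts were 3, 7 and 1, and 6, 1 and 0 with the block and the GC trend removed.

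Of 570 values of the 10 genes under alternatives, 549 kept their direction and side of the threshold, 18 changed sign and 3 came past the threshold. With the GC trend removed, with or without the replicate block, Smad5 was at -0.0015, 0.012 and -0.013 in the 3 comparisons, and at -0.0012, 0.018 and -0.019 with voom, while Bmp7 for P7C3-A20 against DMSO was at -0.021 in each. With voom without P7C3-A20 replicate 3, P7C3-A20 against DMSO gave 0.0044 for Smad4, 0.035 for Id2 and -0.0086 for Bmp7, and NAT against P7C3-A20 gave -0.0020 for Smad4 and -0.030 for Id1. With 1 library left out, Bmpr1b ranged from -0.037 to 0.0019 for NAT against DMSO. Smad4 ranged from -0.040 to 0.021 and Id2 from -0.14 to 0.054 for P7C3-A20 against DMSO. Id1 ranged from -0.017 to 0.12 for NAT against P7C3-A20. The cause of these shifts was not tested. Id1, with the fewest reads of the 10 genes, is the value that depth limits most.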
